A study of Mus musculus with 8 samples.

Results

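Suz12GT and Suz12delta cells carry different mutations of the same gene, and RNA-seq values of both were compared at day 5 of directed differentiation into spinal motor neurons (SMNs). A gene was compared if either library had it at 1 FPKM or above and neither listed it at 0, and 16200 of the 36808 genes in the table met this rule. FPKM count the fragments of a gene relative to the length of its transcripts and to the size of the library, so that genes of unequal length can be set side by side. A further 279 genes reached 1 FPKM in 1 library and were listed at 0 in the other, 150 of them at 0 in Suz12GT and 129 at 0 in Suz12delta, and 20329 genes stayed under 1 FPKM in both. At the threshold, Unc13d was just inside with 0.151 FPKM in Suz12GT and 1.0003 FPKM in Suz12delta, and AI838599 was just outside with 0.132 and 0.9996 FPKM. Of the genes compared, 13362 were annotated as protein-coding and 1906 as pseudogenes.

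SUZ12 is a core subunit of PRC2, the complex that trimethylates lysine 27 of histone H3 (H3K27me3). This mark lies over the promoters of many developmental regulators in embryonic stem cells (ESCs) and is associated with their repression. During motor neuron formation, retinoic acid and Hedgehog signalling turn on progenitor factors such as OLIG2, then neurogenic factors, and finally the genes of postmitotic neurons.

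Each group was 1 library of 1 mutant ESC line. The Suz12GT line, on a 129/Ola background, holds a gene trap that fuses part of SUZ12 to β-galactosidase and is a hypomorph that keeps some H3K27me3. The Suz12delta line, on a C57/BL6 background, makes a truncated SUZ12 and has lost nearly all of the mark. Values of day 5 cells of 2 other lines are given beside them. These were E14 wild-type cells, on the same 129/Ola background as Suz12GT, and Eednull cells, on a BALB/cR1 background, in which a point mutation of Eed, another core PRC2 subunit, also removes nearly all H3K27me3. All lines were grown with leukemia inhibitory factor (LIF) on irradiated mouse embryonic fibroblasts (MEFs), which were removed by a brief plating step, and were then differentiated without LIF and with retinoic acid and a Hedgehog agonist. Cells were collected whole at day 5, before terminal differentiation. Because the lines differ in strain and in derivation as well as in allele, these cannot be told apart in any value below, and with 1 library per side no difference has a replicate check or a test.

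All FPKM of a library added up to 422509 in Suz12GT and 460746 in Suz12delta, with 9.19% and 11.1% in their 10 most abundant genes, and the number of reads behind them is unknown. Suz12 itself was at 10.3 FPKM in Suz12GT, 11.6 FPKM in Suz12delta, 16.2 FPKM in wild type and 17.6 FPKM in Eednull cells. A value for the whole gene cannot tell a fused or truncated transcript from an intact one, so it does not check the alleles. Among 5 motor neuron lineage markers in the table, the summed level was 87.9 FPKM in Suz12GT, 96.6 in wild type, 12.5 in Suz12delta and 8.83 in Eednull cells. Markers of other cell types also differed. Those of ESCs (4 genes) summed to 4.99 FPKM in Suz12GT and 7.51 in Suz12delta. The 6 endoderm markers summed to 29.1 and 41.4 FPKM. For 7 fibroblast markers, which MEFs would also carry, the sums were 12.4 and 99.9 FPKM, with all 7 at 1 FPKM or more in Suz12delta, 4 in Suz12GT and none listed at 0 in either. The label of a motor neuron differentiation thus fits the levels of its markers in the Suz12GT library. In the Suz12delta library the neuronal markers were low (Stmn2 at 4.92 FPKM, Elavl3 at 0.430, Dcx at 0.554). Stmn2 did not mark neurons alone in these data, as it was at 75.7 FPKM in E14 ESCs and 39.9 FPKM in Suz12delta ESCs. Tubb3, a tubulin of neurons, was listed at 0 in both libraries and in the other 6, so that a 0 in this table cannot be read as absence. The samples were bulk RNA, in which fewer cells of a type and less RNA per cell cannot be told apart.

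Most genes differed little between the hypomorph and the truncation. The ratio was taken as log2 of FPKM plus 0.1 in Suz12GT over the same in Suz12delta, which understates the difference of genes with low values, and its median was -0.15. Of the 16200 genes, 12236 (75.5%) were within 2-fold. At least 2-fold higher in Suz12GT were 1714 genes (10.6%), and 2250 (13.9%) were at least 2-fold higher in Suz12delta. These shares are the background for the gene lists below. At 4-fold, the counts were 767 and 912. Differences of 32-fold or more were found for 72 genes higher in Suz12GT and 29 higher in Suz12delta. For scale, the 2 wild-type ESC lines of the series, CJ7 (129/S) and E14, were at least 2-fold apart for 3.82% (CJ7 higher) and 11.6% (E14 higher) of 14904 genes by the same rule. The labels tie CJ7 to the preparation of the Eednull ESC library, so line and preparation cannot be told apart in this scale. Against Eednull, 12.9% of 15877 genes were at least 2-fold higher and 10.3% lower in Suz12GT, and between Suz12delta and Eednull, which differ in gene and strain, 4.74% of 15691 genes were higher and 1.38% lower in Suz12delta.

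**Figure D1:**
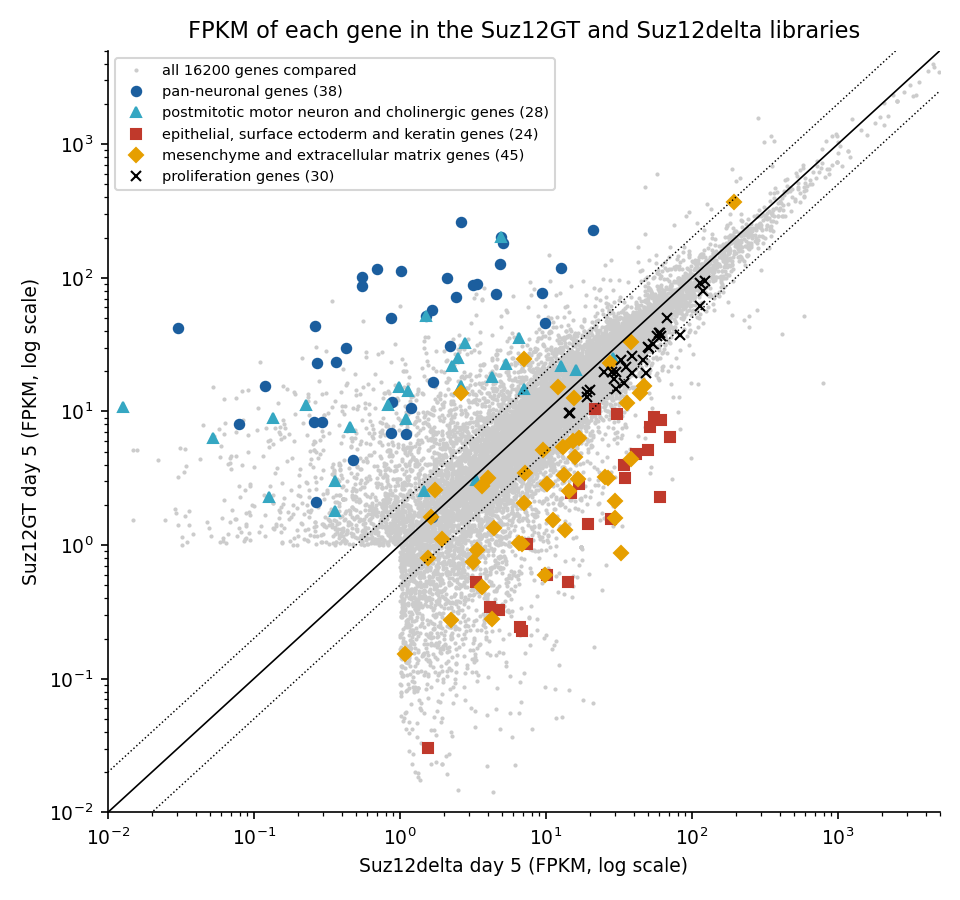
FPKM of the 16200 genes in the Suz12delta library (x axis) and the Suz12GT library (y axis), both at day 5 and on log scales, with 5 gene lists in colour, the line of equal values and dotted lines at 2-fold. Of 38 pan-neuronal genes 37 lie above the upper dotted line, all 24 epithelial genes compared lie below the lower one, and 26 of 30 proliferation genes lie between them.

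The genes with the widest separation on the Suz12GT side were those of neurons. Myt1, a zinc-finger factor of differentiating neurons, was at 42.0 FPKM in Suz12GT and 0.0303 FPKM in Suz12delta (log2 ratio 8.33), beside 39.2 FPKM in wild type and 0.178 FPKM in Eednull. Dcx, a microtubule-binding protein of migrating neurons, was at 101 FPKM in Suz12GT and 0.554 FPKM in Suz12delta (7.28), with 63.7 FPKM in wild type. Elavl4, which encodes the neuronal RNA-binding protein HuD, was at 116 and 0.700 FPKM (7.18), with 102 FPKM in wild type. All 3 genes were thus within 2-fold of wild type in the hypomorph. Snap25, a SNARE protein of synaptic vesicle release, was at 43.9 FPKM in Suz12GT, 0.264 FPKM in Suz12delta (6.92) and 9.14 FPKM in wild type. Stmn4 was at 86.6, 0.547 and 28.2 FPKM in the same libraries (7.07) and Stmn3 at 112, 1.01 and 65.5 FPKM (6.65), both of them stathmins of neurons. Fabp7, a fatty acid-binding protein of radial glia, was at 66.7 FPKM in Suz12GT, 0.345 FPKM in Suz12delta (7.23) and 27.3 FPKM in wild type. The remaining genes among the 10 highest ratios were Clvs1 (6.80), the bHLH factor Neurod4 (6.65) and Chat (6.60), which makes acetylcholine.

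Of the list of 42 pan-neuronal genes, 40 were in the table and 38 were compared. In Suz12GT, 37 of them were at least 2-fold higher, against a background of 10.6%, and 0 were higher in Suz12delta. The median log2 ratio was 4.79 (4.73 with the 2 genes outside the rule, among them Tubb3, listed at 0 in both libraries). Median levels were 45.1 FPKM in Suz12GT, 25.7 in wild type, 1.06 in Suz12delta and 0.86 in Eednull. The single gene within 2-fold was Nefh, the heavy neurofilament, at 1.61 and 1.67 FPKM. Against wild type, 10.5% of 15096 genes were at least 2-fold higher in Suz12GT and 2.08% lower, and 18.9% of 15783 were at least 2-fold higher in Suz12delta and 7.95% lower. Against Eednull, 38 of 39 were higher in Suz12GT and 0 lower. By the comparisons with wild type, which share the wild-type library, 15 pan-neuronal genes were higher and 0 lower in Suz12GT, and 1 was higher and 35 lower in Suz12delta. Gap43, a growth cone protein, gives the size of these levels, with 126 FPKM in Suz12GT, 88.6 in wild type and 4.88 in Suz12delta.

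Genes of postmitotic motor neurons were arranged in the same way. All 28 list genes found in the table were compared, with 23 at least 2-fold higher in Suz12GT, 0 in Suz12delta and a median log2 ratio of 3.05. Chat was at 10.8 FPKM in Suz12GT, 0.0127 FPKM in Suz12delta and 7.61 FPKM in wild type. Ache, which breaks acetylcholine down, was at 8.97 and 0.136 FPKM (5.26), and Lhx4, a LIM factor of motor neurons, at 6.34 and 0.0524 FPKM (5.40). Levels in the truncation were at or under 0.14 FPKM for each of these 3. Among factors of the lineage, Mnx1, Isl1 and Lhx3 had a measurable level in Suz12delta, while Olig2 was near 0 (0.107 FPKM). Which cells expressed them cannot be told from bulk RNA. Mnx1 (HB9) was at 15.4 FPKM in Suz12GT and 2.63 FPKM in Suz12delta (2.50), with 16.7 FPKM in wild type. Isl1 was at 22.8 and 5.32 FPKM (2.08), with 18.1 FPKM in wild type. Lhx3, their partner in motor neuron specification, was at 25.3 and 2.52 FPKM (3.28), with 25.8 FPKM in wild type and 0.356 FPKM in Eednull. The hypomorph was within 2-fold of wild type for all 3. Foxp1, at 25.1 and 29.0 FPKM, and the semaphorin receptor gene Nrp1, at 20.4 and 16.2 FPKM, were within 2-fold between the mutants.

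Motor neuron progenitor and ventral neural tube factors held 18 genes, of which 15 were compared. In Suz12GT 11 were higher and in Suz12delta 0, with a median log2 ratio of 2.31 (2.03 with the other 3). Olig2, the factor that specifies motor neuron progenitors, was at 10.5 FPKM in Suz12GT, 0.107 FPKM in Suz12delta (5.68), 22.1 FPKM in wild type and 0.0455 FPKM in Eednull. Neurog2, a proneural factor induced in these progenitors, was at 7.89 and 0.0450 FPKM (5.78), with 20.7 FPKM in wild type. Nkx2-2, a factor of the neighbouring ventral domain, was at 5.05 and 0.242 FPKM (3.91), with 4.46 FPKM in wild type. Olig2 and Neurog2 were thus between wild type and the truncation in the hypomorph, and Nkx2-2 was within 2-fold of wild type. Pax6, a factor of neural tube progenitors, did not separate the mutants, with 8.18 FPKM in Suz12GT, 7.24 in Suz12delta (0.17), 9.35 in Eednull and 21.9 in wild type. Nor did Foxa2, a floor plate and endoderm factor, at 11.8 and 12.0 FPKM with 2.96 FPKM in wild type. Shh, the ligand made by the floor plate, was chosen after its values were seen and was at 10.4 and 9.06 FPKM, against 1.71 FPKM in wild type.

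Proneural and Notch genes gave 16 of 28 genes compared (35 written) as higher in Suz12GT and 1 as higher in Suz12delta, with a median log2 ratio of 1.85 (0.99 over all 35). Neurod4 was at 15.2 FPKM in Suz12GT, 0.0525 FPKM in Suz12delta and 24.1 FPKM in wild type. Dll3, a divergent Notch ligand, was at 12.7 and 0.235 FPKM (5.26), with 33.4 FPKM in wild type. Hes5, a Notch target in neural progenitors, was at 7.55 and 0.163 FPKM (4.86), with 43.2 FPKM in wild type, so that the hypomorph was over 4-fold below wild type as well. Hes1, a Notch target outside the nervous system too, was at 24.2 and 31.4 FPKM, and the bHLH antagonist Id3 at 30.9 and 50.9 FPKM. For the 26 neural progenitor genes compared (28 written), 17 were higher in Suz12GT, 1 in Suz12delta, and the median was 2.14. Sox2 was at 22.2 and 3.70 FPKM (2.56) with 20.7 FPKM in wild type, and the ciliary and neural tube factor Rfx4 at 25.01 and 0.215 FPKM (6.32) with 23.0 FPKM in wild type.

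**Figure D2:**
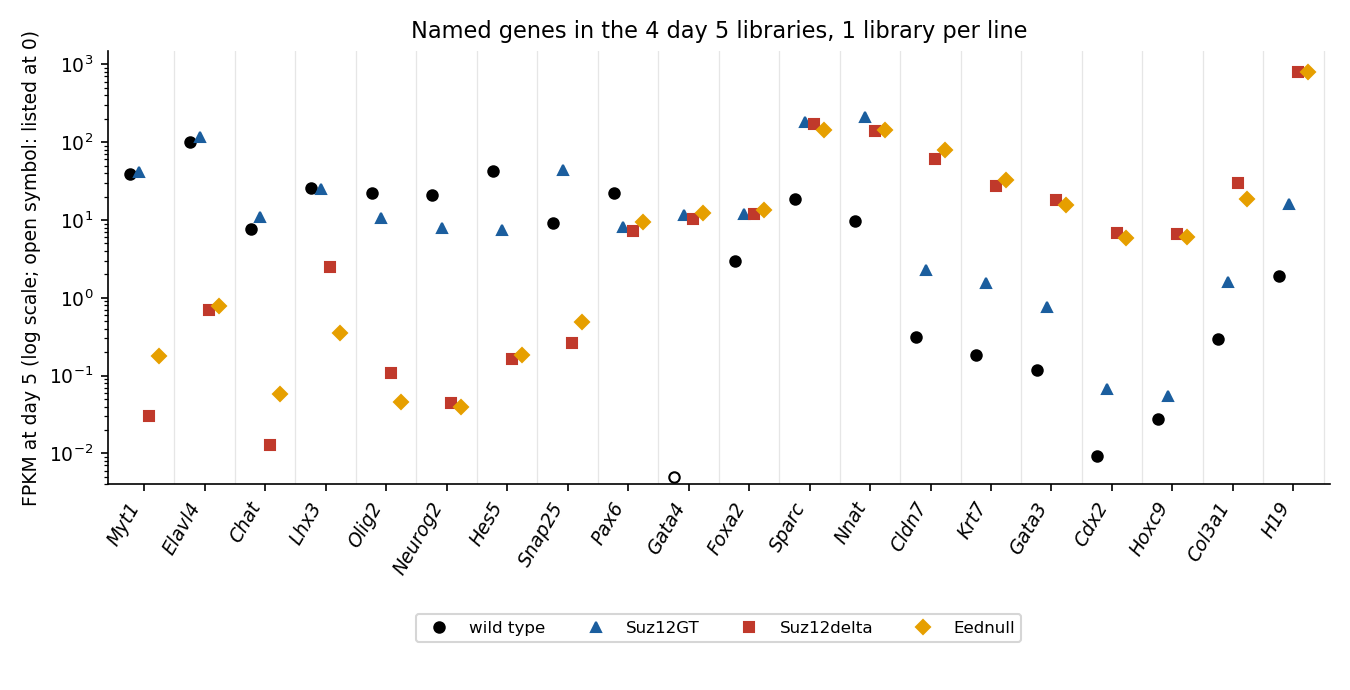
FPKM (log scale) of 20 genes at day 5 in wild-type, Suz12GT, Suz12delta and Eednull cells, 1 library each, with an open symbol for a value listed at 0. From Myt1 to Snap25 the Suz12GT value lies far above the Suz12delta value, from Pax6 to Nnat both lie close together, and from Cldn7 to H19 the Suz12delta value lies far above.

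Most Pcdhb genes, clustered protocadherins whose cell-surface proteins give neurons individual identities, were also higher in the hypomorph. Of 22 Pcdhb genes 20 were compared, 19 were higher in Suz12GT and 0 in Suz12delta, and the median log2 ratio was 2.45. Their levels were between 1.48 and 13.7 FPKM in Suz12GT and between 0.0685 and 5.08 FPKM in Suz12delta. Pcdhb6 was highest, at 13.7 FPKM in Suz12GT, 0.778 in Suz12delta (3.97) and 5.01 in wild type. Pcdhb22 was the gene within 2-fold, at 10.03 and 5.08 FPKM. These genes are close copies of each other, so that reads mapping to several of them may have been divided among them. Of the other clustered protocadherins in the table, all named after their values were seen, Pcdha1 was at 28.3 and 2.01 FPKM and Pcdha3 at 5.68 and 0.135 FPKM, while Pcdhga11 did not separate the mutants, at 35.5 and 36.5 FPKM (-0.04).

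On the Suz12delta side, epithelial genes gave the most uniform list. Of 29 genes found, 24 were compared, and all 24 were at least 2-fold higher in Suz12delta, against a background of 13.9%, with a median log2 ratio of -3.25 (-3.07 over all 29). The median level was 14.9 FPKM in Suz12delta, 12.3 in Eednull, 1.43 in Suz12GT and 0.18 in wild type. Cldn7, a tight junction protein, was at 2.29 FPKM in Suz12GT and 60.6 FPKM in Suz12delta (-4.67), with 79.1 FPKM in Eednull and 0.311 FPKM in wild type. Krt7, a keratin of simple epithelia and trophoblast, was at 1.57 and 27.8 FPKM (-4.06). Cdh3 (P-cadherin) was at 0.529 and 14.2 FPKM (-4.51), and Grhl3, a grainyhead factor of surface ectoderm, at 0.229 and 6.87 FPKM (-4.40). All 4 values in Suz12GT were also above those in wild type. Against wild type, 15 of 16 epithelial genes were higher in Suz12GT and 22 of 22 in Suz12delta. Epithelial genes are also expressed by ESCs, and Cldn7 was at 34.5 FPKM in Suz12delta ESCs and 13.7 FPKM in E14 ESCs.

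Mesenchyme and matrix genes followed, with 31 of 45 compared (47 written) higher in Suz12delta, 2 higher in Suz12GT and a median of -1.74. Tgfbi, a matrix protein induced by TGF-beta, was at 0.867 FPKM in Suz12GT and 32.7 FPKM in Suz12delta (-5.08). Col3a1, a fibrillar collagen, was at 1.59 and 29.6 FPKM (-4.14), and Postn at 0.5997 and 9.94 FPKM (-3.84). Vim was within 2-fold, at 372 and 194 FPKM, as was Igfbp5, at 33.2 and 38.3 FPKM. The 2 genes higher in Suz12GT were Zeb1, at 24.5 and 7.07 FPKM, and Zeb2, at 13.7 and 2.61 FPKM, factors of mesenchymal transition that neural cells also express. Both were named after their values were seen. The fibroblast markers given above are part of this list and move with it. In Suz12delta ESCs they summed to 479 FPKM, against 77.5 FPKM in E14 ESCs. What carried-over MEFs contribute was not tested.

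Trophoblast genes were higher in Suz12delta for 17 of 19 compared (28 written), with 0 higher in Suz12GT and a median of -2.24. Cdx2, the factor of trophectoderm and posterior mesoderm, was at 0.0668 FPKM in Suz12GT and 6.77 FPKM in Suz12delta (-5.36), with 0.00927 FPKM in wild type and 5.79 FPKM in Eednull. Gata3, which acts beside it in trophectoderm, was at 0.772 and 17.8 FPKM (-4.36). Gata2, a factor of blood, trophoblast and interneurons, was at 0.591 and 11.7 FPKM (-4.09). The 24 mesoderm factors compared (48 written) gave 18 higher in Suz12delta and 1 in Suz12GT, with a median of -2.19. Tcf21, a factor of visceral mesoderm, was at 0.0866 and 9.96 FPKM (-5.75), Osr1, of intermediate mesoderm, at 0.410 and 15.2 FPKM (-4.91), and the ligand Bmp4 at 0.230 and 8.73 FPKM (-4.74). Wt1, a factor of the kidney and of mesothelium that also marks some spinal interneurons, was at 1.38 and 28.8 FPKM (-4.29).

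Blood and endothelial genes (14 of 20 higher in Suz12delta, 1 in Suz12GT, median -2.47) and cardiac and smooth muscle genes (9 of 13 higher in Suz12delta, 0 in Suz12GT, median -1.83) had medians of at most 0.36 FPKM in Suz12GT and 1.72 FPKM in Suz12delta. Kdr, a VEGF receptor, was at 0.897 FPKM in Suz12GT and 8.45 FPKM in Suz12delta (-3.10), and the smooth muscle gene Cnn1 at 0.214 and 7.97 FPKM (-4.68). Runx1, the gene of the blood list on the other side, was at 7.05 and 1.07 FPKM and was named after its values were seen. It is expressed in blood progenitors and in some neurons. Germline genes gave 18 of 21 higher in Suz12delta, 0 in Suz12GT and a median of -2.06, at a median level of 0.31 FPKM in Suz12GT. Tex11, a meiosis gene, was at 0.359 and 4.19 FPKM (-3.22). Of the ligands and antagonists of the BMP, TGF-beta and Wnt pathways, 14 of 30 were higher in Suz12delta and 3 in Suz12GT. Rspo1, a Wnt amplifier, was at 0.351 and 7.91 FPKM (-4.15) and Wnt6 at 0.108 and 3.46 FPKM (-4.10). Hapln1, a link protein of hyaluronan matrix, was at 0.0844 and 11.6 FPKM (-5.99), and the chemokine gene Cxcl5 at 0.127 and 12.2 FPKM (-5.76). Both were among the 10 lowest ratios at 10 FPKM or more, of which 6 were Xlr genes.

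Lists of other neural territories were small or mixed. Of 12 spinal interneuron factors compared (34 written), 6 were higher in Suz12GT and 6 in Suz12delta, with Bhlhe23 at 10.6 and 0.579 FPKM (3.98) and the LIM factor Lhx2 at 0.0575 and 3.28 FPKM (-4.42). Gata2, Gata3 and Wt1, named above, belong to this list as well. Of 7 dorsal neural tube genes (20 written), 0 were higher in Suz12GT and 3 in Suz12delta, among them the roof plate factor Msx1, at 0.152 and 4.56 FPKM (-4.21). Neural crest and glial genes gave 4 of 12 higher in Suz12GT and 5 in Suz12delta, with the neuregulin receptor Erbb3 at 0.351 and 5.15 FPKM (-3.54). Of 7 anterior brain factors (25 written), 3 were higher on each side and Gbx2, a factor of the midbrain and hindbrain boundary, was within 2-fold at 2.74 and 2.67 FPKM. The genes that the study names as targets were chosen by it on these samples and are not independent evidence, and 8 of 24 were higher in Suz12GT and 9 in Suz12delta.

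**Figure D3:**
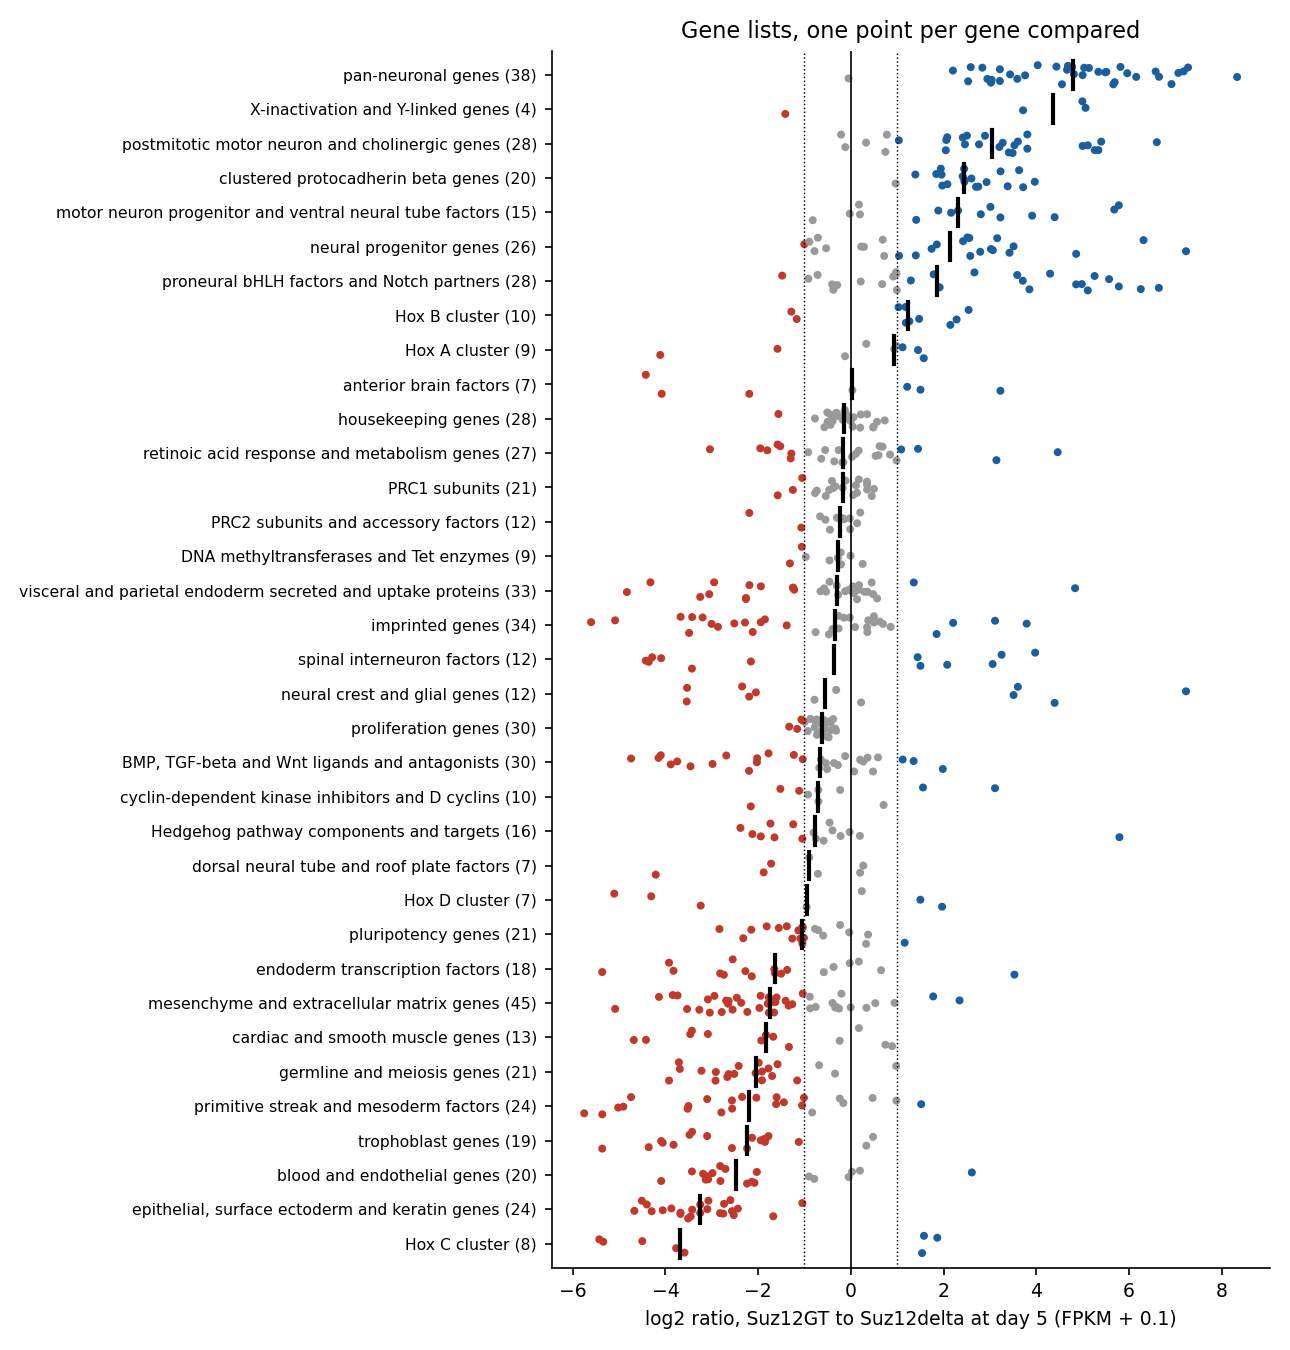
log2 ratio of Suz12GT to Suz12delta at day 5 (x axis, FPKM + 0.1) for each gene compared in 35 lists (y axis, number of genes in brackets), with blue points at least 2-fold higher in Suz12GT, red points at least 2-fold higher in Suz12delta, grey points within 2-fold and a black bar at the median. Pan-neuronal genes have a median of 4.79 and epithelial genes one of -3.25, while housekeeping genes (-0.14) and PRC2 subunits (-0.23) sit near the median of all genes, -0.15.

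Endoderm genes were mixed, both among transcription factors and among secreted proteins. Of 18 endoderm transcription factors compared (24 written), 12 were higher in Suz12delta and 1 in Suz12GT, with a median of -1.64. Gata5 was at 0.320 FPKM in Suz12GT and 5.85 FPKM in Suz12delta (-3.83) and Elf3, an epithelial factor, at 2.04 and 12.4 FPKM (-2.55). Gata4, a factor of primitive endoderm and heart, was at 11.6 FPKM in Suz12GT and 10.3 FPKM in Suz12delta (0.17), with 12.1 FPKM in Eednull and a value listed at 0 in wild type. Sox17, named after its values were seen, was also within 2-fold, at 3.03 and 1.89 FPKM (0.65). Onecut1, the gene higher in Suz12GT (14.3 and 1.15 FPKM, 3.53), is shared with the motor neuron list. Among secreted and uptake proteins of visceral and parietal endoderm, 12 of 33 (48 written) were higher in Suz12delta, against a background of 13.9%. Another 2 were higher in Suz12GT and 19 were within 2-fold, with a median of -0.30. Some serum proteins of visceral endoderm were on the Suz12delta side, among them Afp (alpha-fetoprotein, 0.155 and 7.15 FPKM, -4.83), Apoa1 (0.288 and 7.68 FPKM, -4.32) and Ttr (0.356 and 4.24 FPKM, -3.25). Others were within 2-fold, such as Rbp4, at 12.0 and 10.7 FPKM, and Apoa2, at 2.81 and 3.42 FPKM, both named after their values were seen. Fgb, a fibrinogen chain, was opposite to them, with 14.1 FPKM in Suz12GT, 0.395 FPKM in Suz12delta (4.84), 0.230 FPKM in Eednull and 0.144 FPKM in wild type.

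Some genes were above wild type to about the same level in both mutants. To describe them, members within 2-fold of each other were compared with wild type by the mean of both, a description chosen after the data were seen. Of 12177 such genes above 0 in wild type, 243 had a mean at least 4-fold above wild type and 4 a mean at least 4-fold below. The rule left out genes under 1 FPKM in both mutants but kept those near 0 in wild type. These 2 counts therefore cannot be set against each other. Basement membrane genes, which parietal endoderm makes in quantity, were among them. Lamb1, a laminin chain, was at 55.4 FPKM in Suz12GT and 50.5 FPKM in Suz12delta, against 1.52 FPKM in wild type and 54.1 FPKM in Eednull. Sparc, a matrix glycoprotein, was at 181 and 173 FPKM, against 18.8 FPKM in wild type. Col4a1 was at 48.1 and 34.5 FPKM with 7.67 FPKM in wild type, and Nid1, which links laminin to collagen IV, at 11.7 and 10.2 FPKM with 0.486 FPKM in wild type. The same arrangement held for the imprinted genes Plagl1 (48.0 and 66.7 FPKM, wild type 0.468) and Nnat (213 and 138 FPKM, wild type 9.69) and for the BMP ligand Bmp7 (17.9 and 14.9 FPKM, wild type 3.79). Cdkn2a, a PRC2 target that encodes cell cycle inhibitors, was at 31.9962 and 60.9 FPKM with 3.11 FPKM in wild type and 66.6 FPKM in Eednull.

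Hox genes, which give neurons their position along the body axis and lie in 4 clusters, were ordered by paralogue number. Genes at least 2-fold higher in Suz12GT were all between paralogues 1 and 9, and those higher in Suz12delta were Hoxb1 and genes from paralogue 8 to 13. In the Hox B cluster 8 of 10 genes were at least 2-fold higher in Suz12GT, with Hoxb8 at 124.8 FPKM in Suz12GT, 25.6 FPKM in Suz12delta (2.28) and 91.2 FPKM in wild type, and Hoxb5 at 37.8, 6.41 (2.54) and 51.8 FPKM. The 2 genes of this cluster on the other side were Hoxb1 (0.465 and 1.28 FPKM, -1.28) and Hoxb13 (2.59 and 5.95 FPKM, -1.17), while Hoxb9 (21.7 and 9.53 FPKM, 1.18) was higher in Suz12GT. In the Hox C cluster, Hoxc4, Hoxc5 and Hoxc6 were higher in Suz12GT, with ratios of 1.54, 1.86 and 1.58. The other 5 genes compared, from Hoxc8 to Hoxc13, were higher in Suz12delta by at least 3.59 on the log2 scale. Hoxc8 was at 0.191 FPKM in Suz12GT and 11.7 FPKM in Suz12delta (-5.34) and Hoxc9 at 0.0554 and 6.59 FPKM (-5.43), with 0.0138 and 0.0279 FPKM in wild type. Hoxc8 was thus the paralogue 8 gene that was higher in the truncation, and Hoxd8 (1.91 and 3.78 FPKM) was within 2-fold. In the Hox D cluster, Hoxd3 (35.5 and 8.99 FPKM, 1.97) and Hoxd4 (22.3 and 7.82 FPKM, 1.4997) were higher in Suz12GT, and Hoxd9 (0.0604 and 3.07 FPKM, -4.31), Hoxd11 (-3.24) and Hoxd13 (0.110 and 7.11 FPKM, -5.10) in Suz12delta. The Hox A cluster was less uniform, with 3 of 9 genes higher in Suz12GT, 2 (Hoxa9 and Hoxa13) higher in Suz12delta and 4 within 2-fold. Hoxc6, at 12.0 FPKM in the hypomorph, was above its wild-type level of 0.872 FPKM. Hoxa9 was at 2.14 FPKM in the hypomorph and listed at 0 in wild type. Of 39 Hox genes in the table, 5 were not compared. Among them Hoxa10 was at 10.5 FPKM, Hoxa11 at 2.16 FPKM and Hoxd10 at 1.71 FPKM in Suz12delta and all 3 were listed at 0 in Suz12GT, and Hoxc12 and Hoxd12 were under 1 FPKM in both libraries.

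**Figure D4:**
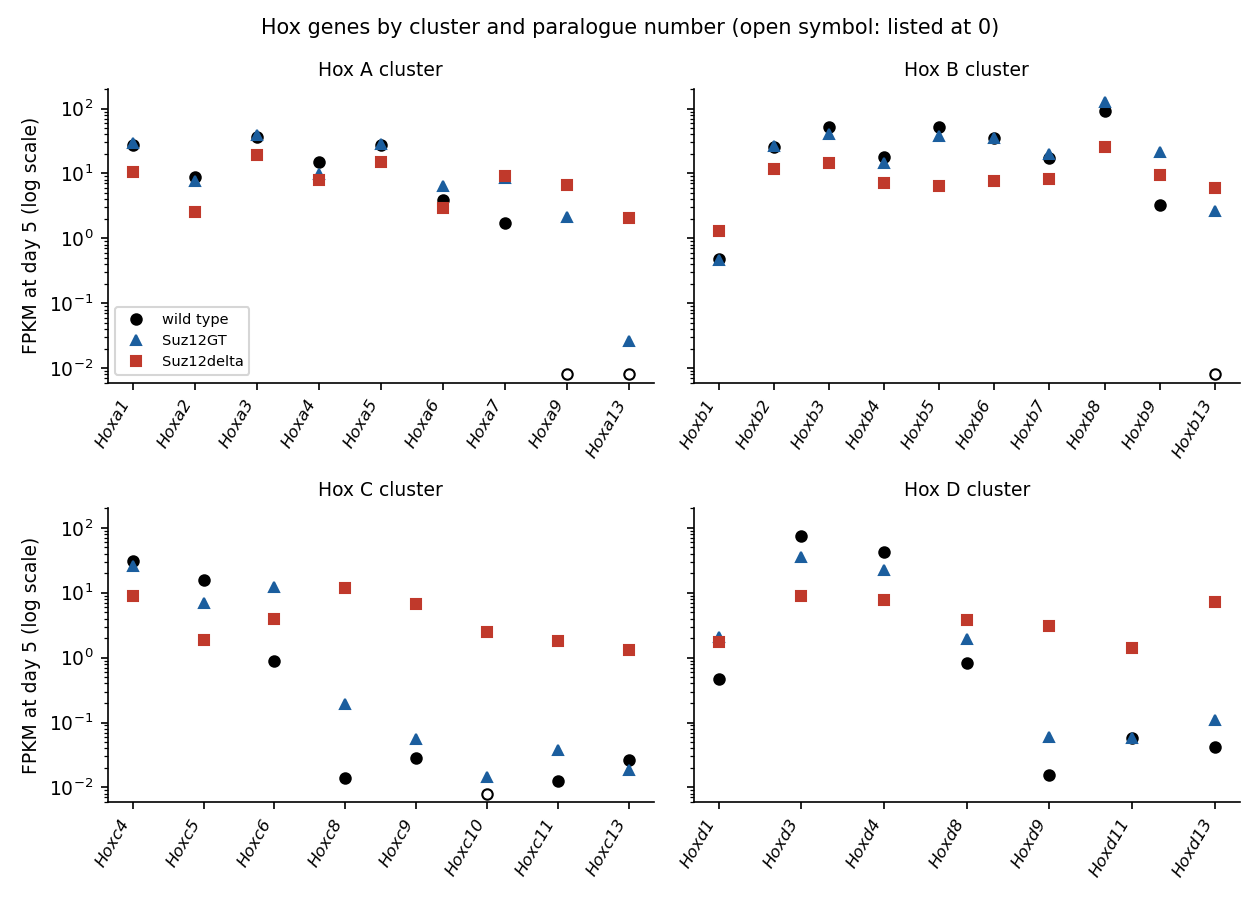
FPKM (log scale) at day 5 of the Hox genes compared, by cluster and paralogue number, in wild-type, Suz12GT and Suz12delta cells, 1 library each, with an open symbol for a value listed at 0. In the C and D clusters the Suz12GT values are below 0.2 FPKM from Hoxc8 and from Hoxd9 on, as in wild type, while the Suz12delta values stay above 1 FPKM throughout.

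Genes of the signals used for differentiation had list medians within 2-fold. They were within 2-fold less often than all genes compared (75.5%). Of 27 retinoic acid genes compared (29 written), 4 were higher in Suz12GT, 7 in Suz12delta and 16 within 2-fold, with a median of -0.16. Cyp26b1, a retinoic acid-degrading enzyme that retinoic acid induces, was at 117 and 76.3 FPKM. Rxrg, a retinoid receptor of neurons, was at 11.0 and 0.404 FPKM (4.46), and Crabp1, a retinoic acid-binding protein, at 94.4 and 10.6 FPKM (3.14). The enzymes that make retinoic acid were on the other side, with Aldh1a2 at 8.29 and 29.1 FPKM (-1.80), Aldh1a1 at 0.464 and 4.54 FPKM (-3.04) and Rdh10 at 4.95 and 19.5 FPKM (-1.95). Of 16 Hedgehog genes (20 written), 7 were higher in Suz12delta, against a background of 13.9%. In Suz12GT 1 was higher and 8 were within 2-fold, with a median of -0.78. Gli1, a target and effector of the pathway, was at 3.53 FPKM in Suz12GT, 15.7 FPKM in Suz12delta (-2.12), 10.6 FPKM in wild type and 11.0 FPKM in Eednull. Gli3, which acts mainly as a repressor, was at 2.08 and 11.3 FPKM (-2.38), and Hhip, an antagonist, at 2.46 and 8.41 FPKM (-1.74). Beside wild type, Gli1 was thus over 2-fold lower in the hypomorph and within 2-fold in the truncation. Hhip, at 4.78 FPKM in wild type, was within 2-fold of that level in both mutants. Ptch1, the receptor, was at 55.3 and 72.8 FPKM, and Disp2, a relative of the ligand exporter with neuronal expression, was the gene on the other side, at 14.8 and 0.168 FPKM (5.80).

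The ESC markers Pou5f1, Nanog and Zfp42 were far below their ESC levels in both libraries, while some other list genes kept higher levels. Of 21 compared (32 written), 13 were higher in Suz12delta and 1 (Mkrn1) in Suz12GT, with a median of -1.05. Pou5f1 (OCT4) was at 1.80 FPKM in Suz12GT and 2.12 FPKM in Suz12delta (-0.23), and Zfp42 at 1.42 and 3.55 FPKM (-1.26), against 130 and 113 FPKM in E14 ESCs. Nanog, named after its values were seen, was at 1.21 and 0.940 FPKM (0.33), against 155 FPKM in E14 ESCs. Mkrn1 was at 46.8 and 20.9 FPKM, and Lin28a, an RNA-binding protein of early embryonic cells, at 15.7 and 12.1 FPKM. Proliferation genes leaned to Suz12delta without passing 2-fold in most cases. Higher there were 4 of 30, near the background of 13.9%, and 0 were higher in Suz12GT. The median was -0.63 and all 30 ratios were below 0. Bub1b, a mitotic checkpoint kinase, was at 19.4 and 48.8 FPKM (-1.33) and Pcna at 95.2 and 124 FPKM (-0.38). Cdkn1c (p57), a cell cycle inhibitor of differentiating cells, was at 28.7 FPKM in Suz12GT, 3.23 FPKM in Suz12delta (3.11) and 26.1 FPKM in wild type. Cdkn2b went the other way, at 2.35 and 10.8 FPKM (-2.16). In the list of cell cycle inhibitors and D cyclins, 2 of 10 genes were higher in Suz12GT and 3 in Suz12delta.

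The genes of the Polycomb complexes differed less. The shares of PRC2 and PRC1 genes that were higher in Suz12delta were near the background of 13.9%. DNA methyltransferases and TET enzymes gave 2 of 9 genes compared as higher in Suz12delta, against the same background, and 0 in Suz12GT. Of 12 PRC2 genes 2 were higher in Suz12delta, Phf19 (0.527 and 2.76 FPKM, -2.19) and Rbbp7 (73.3 and 154 FPKM, -1.07), and Ezh2 was at 67.1 and 74.3 FPKM, Eed at 12.9 and 15.9 FPKM. PRC1 subunits gave 3 of 21 higher in Suz12delta and 0 in Suz12GT, among them Rybp (15.0 and 35.7 FPKM) and Cbx8 (2.38 and 5.02 FPKM). Dnmt3b, a DNA methyltransferase of early embryonic cells, was at 3.05 and 7.74 FPKM (-1.31), and Uhrf1, which recruits DNMT1, at 31.3 and 65.3 FPKM (-1.06). As a control for the scale, 27 of 28 housekeeping genes were within 2-fold, with a median of -0.14, and Gusb was the exception (9.43 and 28.1 FPKM).

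Of 34 imprinted genes compared (39 written), 14 were higher in Suz12delta, against a background of 13.9%. The 4 that were higher in Suz12GT were close to the background of 10.6%. H19, a noncoding RNA, was at 16.3 FPKM in Suz12GT, 796 FPKM in Suz12delta (-5.60), 793 FPKM in Eednull and 1.92 FPKM in wild type. The miRNA gene within it, Mir675, was at 0.172 and 21.6 FPKM (-6.32), and reads of H19 can count towards it. Dlk1, a Notch-like ligand, was at 51.9 FPKM in Suz12GT, 584 FPKM in Suz12delta (-3.49) and 41.1 FPKM in wild type. Meg3, the noncoding RNA of the Dlk1 domain, was unlike the other lines in the hypomorph, with 0.890 FPKM in Suz12GT, 33.5 FPKM in Suz12delta (-5.09), 124.9 FPKM in wild type and 269 FPKM in Eednull. Rian, from the same domain, was at 1.12, 15.5, 82.6 and 122 FPKM in these libraries. For this pair the hypomorph was the lowest of the 4 day 5 libraries, and the truncation lay between it and wild type. Grb10, an adaptor of growth factor signalling, was at 148 FPKM in Suz12GT, 10.6 FPKM in Suz12delta (3.79) and 240 FPKM in wild type.

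A few genes were higher in Suz12delta cells, at day 5 and as ESCs, than in day 5 cells of the 3 other lines. The X-linked Xlr3, Xlr4 and Xlr5 genes, a family of nuclear proteins with near-identical copies, had 15 entries in the table, of which 14 were compared and all 14 were higher in Suz12delta, with log2 ratios from -6.998 to -4.70. They were between 5.65 and 24.5 FPKM in Suz12delta, between 0.0228 and 0.606 FPKM in Suz12GT and at most 0.559 FPKM in Eednull. Xlr5a, with the lowest ratio of all genes at 10 FPKM or more (-6.998), was at 0.0655 and 21.0 FPKM, and was at 5.80 FPKM in Suz12delta ESCs. Rhox9, an X-linked homeobox gene, was at 1.95 and 29.0 FPKM (-3.83) with 3.22 FPKM in Eednull and 39.7 FPKM in Suz12delta ESCs. The splicing factor gene Cwc22, named after its values were seen, was at 12.8 and 82.0 FPKM with 15.1 FPKM in Eednull and 42.2 FPKM in Suz12delta ESCs. Y-linked genes went the other way. Eif2s3y was at 27.1 FPKM in Suz12GT, 0.714 FPKM in Suz12delta (5.06), 25.4 FPKM in Eednull and 12.3 FPKM in Suz12delta ESCs, and Uty and Ddx3y were also low (ratios of 5.00 and 3.72). Medians by chromosome were otherwise between -0.26 (chromosome 6) and -0.03 (chromosome 16), apart from -0.40 for 37 mitochondrial genes. How far strain or line sets these genes was not tested.

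The comparison was next arranged by what each gene did in wild-type cells, using the E14 ESC and E14 day 5 libraries, which enter no Suz12GT to Suz12delta ratio. A class could be given to 14703 genes. Of the 993 genes at least 4-fold higher at day 5 than in ESCs, 634 (63.8%) were at least 2-fold higher in Suz12GT than in Suz12delta and 25 (2.52%) were lower, with a median log2 ratio of 1.54. Of the 1139 genes at least 4-fold lower at day 5, 771 (67.7%) were higher in Suz12delta and 37 (3.25%) in Suz12GT, with a median of -1.48. Among the 9707 genes within 2-fold in wild type, the shares were 3.39% and 3.81%. Suz12GT shares its strain with the E14 cells that set the classes and Suz12delta does not. Beside wild type, the genes of the first class were at least 2-fold below wild type for 3.32% in Suz12GT, 57.4% in Suz12delta and 60.4% in Eednull. Those of the second class were at least 2-fold above wild type for 51.5%, 84.3% and 72.5% of genes. These last values share the wild-type day 5 library that also set the classes. Only genes at 1 FPKM or more in Suz12GT or Suz12delta were compared. A gene that wild-type cells turned down thus entered only where a mutant still had it. The shares of the second class are therefore not those of all genes turned down. Among the genes compared, the hypomorph was close to wild type for most that wild-type cells turned up. It was above wild type for a large share of those that they turned down.

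**Figure D5:**
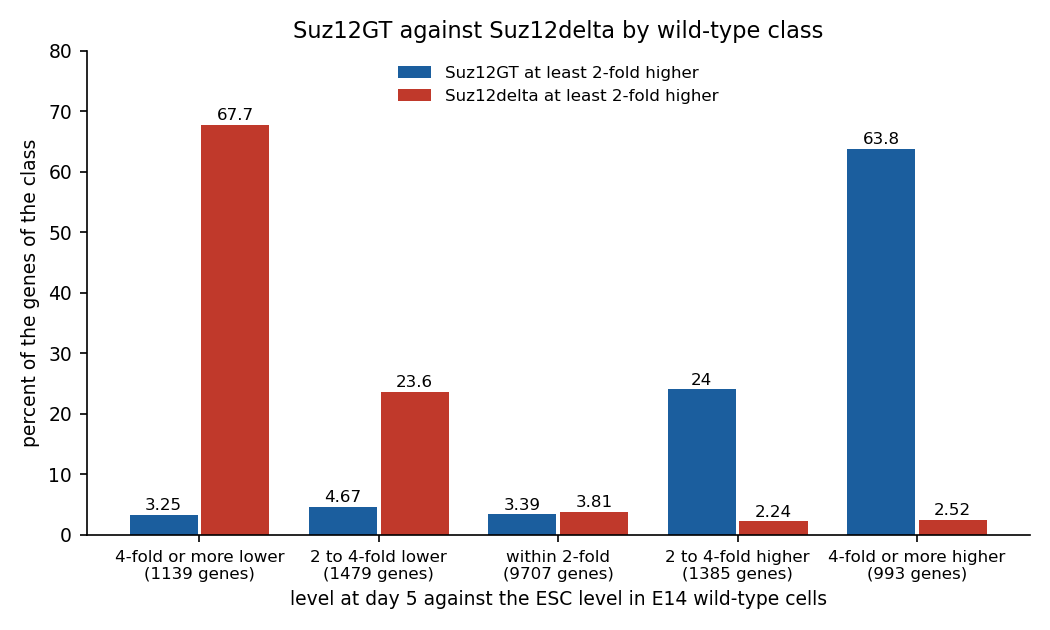
Percent of genes (y axis) at least 2-fold higher in Suz12GT (blue) or in Suz12delta (red), in 5 classes of the E14 wild-type level at day 5 against ESCs (x axis, number of genes in brackets). The blue bar is 63.8% in the class that was 4-fold or more higher in wild type and the red bar 67.7% in the class that was 4-fold or more lower, against 3.39% and 3.81% in the class within 2-fold.

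Some genes of these classes went against their class. Among the 25 genes that were at least 4-fold higher in wild type at day 5 yet higher in Suz12delta than in Suz12GT were Dlk1, the PRC1 gene Cbx8, the inhibitor Cdkn2c (1.15 and 3.47 FPKM), and the matrix gene Fbn2 (6.59 and 18.4 FPKM). Among the 37 opposite genes was Pga5, a pepsinogen, at 9.61 FPKM in Suz12GT, 0.415 FPKM in Suz12delta and 0.0285 FPKM in wild type, and the glycolytic enzyme gene Pfkp, at 27.4, 5.51 and 11.1 FPKM. The genes of this paragraph other than Dlk1, Cbx8 and Cdkn2c were named after their values were seen.

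A class of genes was also set without any day 5 library, as those at least 4-fold higher in Eednull ESCs than in both wild-type ESC lines. It held 163 of the genes compared and rests on 1 Eednull library of another strain, whose part cannot be told apart from that of the allele. Of these, 68 (41.7%) were at least 2-fold higher in Suz12delta at day 5, against 13.6% of the 16037 other genes, and 34 (20.9%) were higher in Suz12GT, against 10.5%. Over CJ7 alone, which the labels tie to the preparation of the Eednull ESC library, the class held 459 genes, with 35.1% and 18.7% on these sides. The other genes were not matched to the class in level. Genes near 1 FPKM were compared only through the library where they were higher, which can raise the share on either side. Genes of the class that were higher in Suz12delta included Hoxc9, Hoxd13, Cdx2, Krt7 and H19. Among those higher in Suz12GT were Olig2, Olig1 (5.96 and 0.188 FPKM), Nkx2-2, Mnx1 and Isl2 (14.6 and 2.57 FPKM). Wild-type cells express these genes at day 5. Others on this side were low in wild type at day 5. Srgn was at 37.3 FPKM in Suz12GT and listed at 0 in wild type, and Pga5 was at 9.61 and 0.0285 FPKM. Isl2, Srgn and Pga5 were named after their values were seen. Not all genes of the class were higher in Suz12delta ESCs, where Mnx1 was at 0.108 FPKM, against 0.127 FPKM in E14 ESCs and 1.28 FPKM in Eednull ESCs. Olig2 itself was at 5.19 FPKM in Eednull ESCs, 1.12 FPKM in Suz12delta ESCs and 0.0436 FPKM in E14 ESCs, and so was higher before differentiation than after it in both lines without the mark.

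Promoters were then read as the 250 bases before the annotated gene start, from the NCBI build 37 genome and GENCODE vM1 starts, the build of the table. They were found for 13359 of the 13362 protein-coding genes compared. PRC2 is known to occupy CpG-rich promoters, so the ratio of observed to expected CpG was computed, as the number of CpG times the length over the product of the C and G counts. Its median was 0.735 in genes within 2-fold, 0.550 in the 671 genes at least 4-fold higher in Suz12GT and 0.449 in the 827 at least 4-fold higher in Suz12delta. A ratio of 0.6 or more was found for 67.8%, 44.3% and 31.2% of them, and for 62.2% of all. Both sides of the comparison thus had fewer CpG than the genes that did not differ. Median GC content was 58.8%, 58.0% and 57.2% in the same order. The groups were not matched in level or in kind of gene, and a link to PRC2 was not tested. The promoters of 4 genes described above, a pair from each side, are shown to let their CpG be compared, 5′ to 3′ on the strand of the gene, with each CpG in capitals. Olig2 has 22 CpG (ratio 0.821) and Myt1 has 2 (0.107), and both were higher in Suz12GT. Gata3 and Cldn7 have 6 each (0.385 and 0.377) and were higher in Suz12delta. Each window, that of Gata3 among them, lies before the start annotated for the whole gene, which may not be the start used in these cells.
Olig2, chr16:91225545-91225794, + strand: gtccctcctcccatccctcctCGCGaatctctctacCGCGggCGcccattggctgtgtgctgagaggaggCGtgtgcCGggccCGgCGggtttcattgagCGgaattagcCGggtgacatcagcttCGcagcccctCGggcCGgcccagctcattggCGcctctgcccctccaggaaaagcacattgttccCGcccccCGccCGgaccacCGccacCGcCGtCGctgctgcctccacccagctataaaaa
Myt1, chr2:181497787-181498036, + strand: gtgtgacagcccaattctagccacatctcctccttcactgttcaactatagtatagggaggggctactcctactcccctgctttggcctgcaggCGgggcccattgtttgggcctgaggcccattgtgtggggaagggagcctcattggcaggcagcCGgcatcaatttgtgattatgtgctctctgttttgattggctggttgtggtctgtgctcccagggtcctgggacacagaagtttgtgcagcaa
Gata3, chr2:9811662-9811911, - strand: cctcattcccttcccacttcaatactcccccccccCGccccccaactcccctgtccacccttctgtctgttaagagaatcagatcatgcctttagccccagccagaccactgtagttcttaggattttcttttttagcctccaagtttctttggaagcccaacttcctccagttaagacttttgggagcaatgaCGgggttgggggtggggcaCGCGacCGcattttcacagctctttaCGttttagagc
Cldn7, chr11:69778031-69778280, + strand: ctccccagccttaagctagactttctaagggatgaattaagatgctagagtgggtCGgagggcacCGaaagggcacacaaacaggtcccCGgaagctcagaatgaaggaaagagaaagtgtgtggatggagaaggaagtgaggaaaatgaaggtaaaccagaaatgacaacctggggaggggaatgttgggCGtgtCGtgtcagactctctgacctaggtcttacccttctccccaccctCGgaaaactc

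Genes listed at 0 in 1 library were left out of the ratios. The highest were Skp1a, at 169 FPKM in Suz12delta, Gm10196, at 130 FPKM, Ppp2ca, at 64.9 FPKM, and Ube2b, at 48.6 FPKM, all listed at 0 in Suz12GT, and Arpc4, at 81.1 FPKM in Suz12GT and listed at 0 in Suz12delta. Apart from Gm10196, they encode a ubiquitin ligase adaptor, a phosphatase subunit, a ubiquitin-conjugating enzyme and an actin nucleator, which cells in general use. In each of the 2 libraries 4 genes were at 0 while at 10 FPKM or more in the 7 others, so these zeros can be failed estimates and no fold is given.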

How the data were processed

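RNA-seq values of 8 mouse libraries were used, each the only one of its condition, and the report rests on the Suz12GT and Suz12delta libraries of day 5. The authors deposited gene-level FPKM on NCBI build 37. The submitters' processing notes name Cufflinks 1.2.1, Cuffdiff, Bowtie 0.12.7 and also TopHat 1.3.2. All 8 value columns were assigned from their names and the sample titles. Reads were not analysed here, strand was not used, and depth is unknown, since among 1281 low genes the commonest ratio between both libraries held 1.64%, so that steps of single reads could not be recovered.

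Log2 ratios used a pseudocount of 0.1 and unscaled FPKM. A gene was counted as higher at a difference of 2-fold. No test was run and no p-value is given. The members, gene lists (36) and classes were chosen with earlier results of these data known. Named genes were the 10 highest and 10 lowest ratios at 10 FPKM or more, the 5 widest ratios at 2 FPKM or more and 2 within 2-fold in each list, stage markers, PRC2 genes, Hox genes, and 5 listed at 0. Other genes were named after their values were seen, which include Sox2, Lhx3, Elavl3, Zeb1 and Lamb1. Some genes that the rule names are not reported here. Counts were tested on simulated data. Alternatives are given in the closing section. Promoters were read from the build 37 genome with GENCODE vM1 starts in place of the RefSeq windows first planned, which covered too few genes. Python 3.11.15, NumPy 2.4.6, pandas 2.3.3 and matplotlib 3.10.9 were used.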

Additional observations from a re-analysis of the deposited data

Results flagged for a closer look

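Among the named genes at 10 FPKM or more, the following 8 were at least 2-fold above wild type in Suz12GT and at least 2-fold below it in Suz12delta, so that the mutants lay on opposite sides of wild type. This difference was not tested, as each line had 1 library. Their log2 ratios of Suz12GT to Suz12delta were 7.23 for Fabp7, 7.07 for Stmn4, 6.92 for Snap25, 5.34 for Stmn2, 4.46 for the retinoid receptor Rxrg, 3.98 for Bhlhe23, 3.97 for Pcdhb6 and 3.51 for the endothelin receptor Ednrb. The levels of Stmn2, a microtubule regulator of axons, were 203 FPKM in Suz12GT, 101 in wild type and 4.92 in Suz12delta. In the same order, Bhlhe23 was at 10.6, 5.03 and 0.579 FPKM and Ednrb at 34.7, 17.1 and 2.95 FPKM. Stmn2 was also at 75.7 FPKM in E14 ESCs and 39.9 FPKM in Suz12delta ESCs.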

How the results depend on the processing

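The ratios were recomputed after centring on their median, after equalising the 75th percentile, with a pseudocount of 1 or 0.01, with the minimum raised to 5 FPKM or dropped, with a 4-fold limit and, for the class set in Eednull ESCs, against CJ7 alone. Genes higher in Suz12GT numbered 1714 and in Suz12delta 2250. With a minimum of 5 FPKM they were 1096 and 1067, and at 4-fold 767 and 912. In both cases fewer genes can pass by construction. The other settings stayed within 1.5 times, with the share higher in Suz12GT between 39.1% without a minimum and 50.7% after centring or with 5 FPKM (43.2% as reported). Of the genes 4-fold higher in wild type, 63.8% were higher in Suz12GT, and 58.8% with a pseudocount of 1, 68.3% with a minimum of 5 FPKM and 67.2% after centring. Of those 4-fold lower, 67.7% were higher in Suz12delta, and 50.7% with a pseudocount of 1, 61.1% without a minimum and 62.8% after centring. The cause of these shifts was not tested, and all kept their direction. With a minimum of 5 FPKM, which leaves fewer genes in a list, the Hox C median reversed from -3.68 to 1.54, the Hox D median went from -0.95 to 1.4997 and that of spinal interneuron factors from -0.36 to 1.44. List medians nearer to 0 also changed sign, for retinoic acid genes (-0.16 to 0.07), endoderm secreted proteins (-0.30 to 0.05) and genes the study names (-0.20 to 0.17) with that minimum, for anterior brain factors (0.03 to -0.90) without one, and for housekeeping genes (-0.14 to 0.01) after centring. No paired analysis was possible because each condition had 1 library, and no replicate could be left out. Unknown depth limits all values under 1 FPKM, where a ratio depends on the pseudocount.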

Other observations

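Hprt, a housekeeping gene of purine salvage, was within 2-fold between the mutants, at 16.5 FPKM in Suz12GT and 22.4 FPKM in Suz12delta, and was at 20.7 FPKM in Eednull, but it was at 0.652 FPKM in E14 wild-type cells at day 5 and 2.08 FPKM in E14 ESCs, against 53.3 FPKM in CJ7 ESCs. The hypomorph and the E14 line, which have the same strain in the labels, thus differed at this gene.

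Xist, the noncoding RNA of X inactivation, was at 0.329 FPKM in Suz12GT and 1.04 FPKM in Suz12delta at day 5. In ESCs it was at 15.1 FPKM in Suz12delta, 4.55 in E14, 6.64 in CJ7 and 5.18 in Eednull. Hprt and Xist were named after their values were seen. The Y-linked Eif2s3y was at 12.3 FPKM in Suz12delta ESCs and 0.714 FPKM in Suz12delta cells at day 5.

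A run of 7 Gm1369 entries on chromosome 2 (Gm13691 and Gm13693 to Gm13698) had the same value in each library or nearly so, 0.97 FPKM in Suz12GT and 17.5 FPKM in Suz12delta (17.4 for Gm13695) and each is listed a second time with other values. Near-identical copies share reads. They were named after their values were seen.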
